A study of Saccharomyces cerevisiae with 40 samples.

Results

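Wild-type (WT) yeast cells were labeled with 4-thiouracil (4tU) for 5 lengths of time, and the labeled RNA was captured and sequenced by RATE-Seq. The 9 WT libraries analysed here, of 40 samples in the study, are all WT labeling libraries with a column of counts: 2 libraries each at 6, 9, 24 and 90 min and 1 at 12 min. The other 12 min library did not pass the authors' quality control and was not analysed here. All cells were of the W303 background, which carries mutations in *ADE2*, *HIS3*, *LEU2*, *URA3*, *TRP1* and *CAN1*, and were taken from log phase cultures in YPD medium. The *def1Δ* cells used below for comparison lack *DEF1*, were labeled for the same times and gave 9 libraries with counts. Unlabeled total RNA from 2 WT libraries is given beside some values. The paper calls the labeling replicates biological, while the labels only number them and do not say whether they were separate cultures. The p-values measure the spread between these libraries.

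4tU is taken up by the cells and built into RNA in place of uracil, and the labeled RNA is biotinylated and pulled down on streptavidin beads. After a short pulse the captured RNA holds transcripts in proportion to how fast they are made. As labeling goes on, the labeled pool approaches the standing population, so that long-lived RNA gains in share and short-lived RNA loses. In yeast, mRNAs are degraded mainly after their poly(A) tail is shortened, by decapping and digestion from the 5′ end. Structural RNAs such as snoRNAs are protected in protein complexes and live far longer than mRNAs. A change in transcription during the labeling moves these values as well, and turnover and changed synthesis cannot be told apart from the share of an RNA alone.

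The WT libraries held 6026474 to 10614450 gene counts, with a median of 8114193. Replicates agreed across genes with Pearson's r of 0.981 to 0.991 on the log2(CPM + 1) scale, which is over genes and not over independent samples. Replicate 2 at 9 min stood apart from its partner: snoRNAs and snRNAs took 6.30% of its counts against 3.32% in replicate 1, and 5.53% in the 12 min library. The strain list gives W303 as MAT alpha, but the mating-type markers went against it. *STE2*, the alpha-factor receptor made by MAT a cells, ran from 821 to 1859 normalized CPM, while *MF(ALPHA)1*, the alpha-factor gene, did not exceed 0.307 in any WT library. Summed over 8 a-specific genes the level ran from 1436 to 2831, and over 4 alpha-specific genes from 41.2 to 114, nearly all of it *SAG1* and *STE3*. The members were uneven. Of the a-specific genes, *MFA1*, an a-factor gene, ran only from 0.285 to 1.59, *ASG7* from 2.17 to 5.88 and *MFA2* from 18.1 to 47.9. The alpha-specific *SAG1* ran from 32.0 to 100. *DEF1* (YKL054C, chromosome XI, 336537 to 338753 in the R64 assembly) ran from 106 to 254 normalized CPM in WT and was at or below 0.260 in the *def1Δ* libraries at 6 and 90 min.

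The make-up of the labeled RNA moved with time. Nuclear protein-coding genes took 95.3% and 94.8% of gene counts at 6 min, 84.2% and 84.3% at 24 min, and 74.3% and 71.1% at 90 min. snoRNAs and snRNAs rose from 2.90% and 3.25% to 16.8% and 19.8%. The 10 largest genes took 9.04% and 10.1% at 6 min and 28.6% and 30.6% at 90 min. Across 6296 genes, Pearson's r with unlabeled total RNA was 0.895 and 0.894 for the 6 min libraries and 0.940 in both 90 min libraries. These correlations are across genes, which are not independent, and replicate 2 at 9 min reached 0.937.

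**Figure D1:**
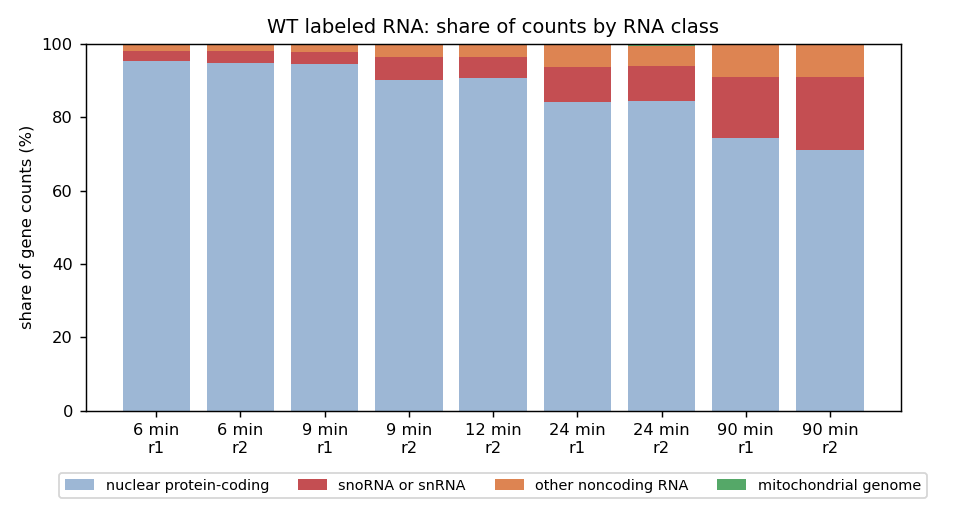
Share of gene counts (%, y axis) by RNA class in each WT library (x axis, labeling time and replicate). The noncoding classes widen from left to right, and nuclear protein-coding genes narrow from 95.3% to 71.1%. rRNA, its spacers and tRNA, each under 0.2% of counts, are left out.

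The balance between rising and falling genes depended on the choice of scale. Values below are CPM (counts scaled to a common library total) corrected by edgeR's TMM factors, called normalized CPM, which take most genes as unchanged. A gene was called where the Benjamini-Hochberg adjusted p of edgeR's quasi-likelihood test was under 0.01 and the log2 change was over 1. On this scale 647 genes (10.3% of 6296 tested) were higher at 6 min than at 90 min and 711 (11.3%) were higher at 90 min, so 47.6% of the calls were falls. Without replicate 2 at 90 min, 395 genes were higher at 6 min. Scaled by library totals alone, 2373 genes fell and 307 rose, and 88.5% of calls were falls. The median log2 change of all genes was -0.15 with TMM and -0.83 with library totals, a shift of -0.68. Changes are therefore given relative to most genes, and a gene or list whose rise is smaller than this shift turns negative with library totals.

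Most called genes had the same direction in libraries that the contrast did not use. Of the 647 genes higher at 6 min, 567 (87.6%) were lower at 24 than at 9 min, against 53.3% of all genes. Of the 711 higher at 90 min, 701 (98.6%) were higher at 24 than at 9 min, against 46.7% of all genes. The falls were less regular in the single 12 min library. There, 436 (67.4%) of the falling genes lay between their mean levels at 6 and 90 min, against 685 (96.3%) of the rising genes. The steps came at different times. Of the 647 falls, 396 were also called from 6 to 24 min but not later, 86 from 24 to 90 min but not earlier, and 6 in both intervals. Of the 711 rises, 503 were also called in the early interval only, 31 in the late interval only and 45 in both. These contrasts share libraries, so the counts are a description. Over all genes, 16.1% were called higher at 6 than at 24 min and 14.2% the reverse, 30.3% in all, while 3.95% were called higher at 24 than at 90 min and 3.3% the reverse, 7.26% in all. In a fit to log2 labeling time over all 9 libraries, 209 genes (3.32%) fell and 465 (7.39%) rose. The falls numbered 126 and 113 without replicate 1 or 2 at 6 min, 128 without replicate 1 at 9 min, and 101 and 75 without replicate 1 or 2 at 90 min. Genes higher at 90 than at 24 min, 208 in all, numbered 84 and 60 without replicate 1 or 2 at 24 min, and 87 and 74 without replicate 1 or 2 at 90 min. Those higher at 24 than at 90 min, 249 in all, numbered 122 to 160 without replicate 2 at 24 min or either library at 90 min.

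The structural RNAs of ribonucleoproteins gained the most in share of all the lists. *SCR1*, the RNA of the signal recognition particle, was at 9924 and 11757 normalized CPM at 6 min, 13898 and 27338 at 9 min, 28508 at 12 min, 60306 and 54244 at 24 min and 99449 and 107299 at 90 min. It rose by 3.25 ± 0.26 on the log2 scale (SE, edgeR adjusted p = 4.3e-06), and both 90 min values lay above every earlier one. *SNR17A*, a copy of the U3 snoRNA that guides cleavage of the rRNA precursor, went from 5662 and 7062 to 77204 and 90550. *NME1*, the RNA of RNase MRP, went from 374 and 452 to 3766 and 4785. *LSR1*, the U2 spliceosomal RNA, rose by less, from 4122 and 4595 to 21155 and 22826. In total RNA, *SCR1* stood at 87142 CPM and *SNR17A* at 86078. All 9 structural RNAs in the list were called higher at 90 min under both scales, with a median log2 change of 3.25. Of 67 snoRNAs and snRNAs tested, 46 were higher at 90 min, none was higher at 6 min, and the median was 2.85. The lists overlap: *SNR19*, *SNR6*, *SNR14*, *SNR17A* and *SNR17B* are members of both. *SNR46*, a snoRNA, went from 143 and 159 to 2039 and 2640, and at 24 min it stood between, at 605 and 640.

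The transcribed spacer *ETS1-1*, which is removed from the rRNA precursor, was listed at 33.0 and 7.81 normalized CPM at 6 min and at 1.92 and 2.66 at 90 min (log2 change -3.16 ± 0.62, edgeR adjusted p = 0.0015). The 6 min replicates differ by over 4-fold, and without replicate 1 the change was -1.78. The call was lost without that library and without either 90 min library (-2.93 and -3.36). *ETS1-2* had the same counts, and the other 2 spacers tested, *ITS1-1* and *ITS1-2*, also identical, were not called (log2 change -1.93 ± 0.76, edgeR adjusted p = 0.051). The spacer copies share their reads, and rRNA was depleted from the libraries. Of 9 long noncoding RNAs tested, 2 fell: *IRT1*, transcribed over the promoter of *IME1*, and *ICR1*, transcribed over that of *FLO11*. *IRT1* went from 52.8 and 49.5 at 6 min to 17.4 and 18.4 at 24 min and 10.4 and 16 at 90 min.

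Of 135 cytoplasmic ribosomal protein genes tested, 124 were called higher at 90 min and 2 higher at 6 min, and their median log2 change was 1.91 (1.23 with library totals, where 97 were called higher). *RPS13*, a protein of the small subunit, was at 428 and 442 at 6 min, 451 and 528 at 9 min, 608 at 12 min, 707 and 705 at 24 min and 2086 and 2071 at 90 min. Its log2 change was 2.26 ± 0.14 (edgeR adjusted p = 1.4e-06), and most of it fell between 24 and 90 min. *RPS22A*, also of the small subunit, reached 1411 and 1490 from 269 and 287, and *RPL1A*, of the large subunit, 1437 and 1548 from 244 and 291. *RPS28A*, with a log2 change of 3.04 ± 0.24, went from 21 and 15.2 to 162 and 135. Many ribosomal protein genes are near-identical pairs, and reads that fit both copies were divided by the authors' estimation, so the split within a pair is uncertain.

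A few ribosomal protein genes did not follow. *RPL22B* was at 38 and 39 at 6 min, 13 and 12 at 24 min and 11 and 7 at 90 min, and fell by 2.09 on the log2 scale (edgeR adjusted p = 1.1e-05). *RPL8A* fell by 1.45, from 221 and 251 to 90 and 84. *RPS9A* was at 163 and 171 at 6 min, dropped to 47 and 45 at 24 min and returned to 145 and 140 at 90 min. *RPL3*, a benchmark of decay studies, stood at 1098 and 1157 at 6 min and 1182 and 1038 at 90 min (log2 change -0.02 ± 0.14). *RPL22B*, *RPL8A* and *RPS9A* were singled out after their values were seen.

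Of 10 translation elongation factors, 6 were called higher at 90 min and none at 6 min, and with library totals 2 were called higher. *TEF2* and *TEF1*, which both encode the factor that brings aminoacyl-tRNA to the ribosome, went from 2171 and 2185 to 10115 and 9182, and from 2794 and 2968 to 11267 and 10850. Their coding sequences are nearly the same, so the split between them is uncertain. Of 19 aminoacyl-tRNA synthetase genes, 2 were called higher at 90 min, and the list median of 0.32 turned to -0.37 with library totals. Ribosome biogenesis genes, which make and assemble ribosomes, took another course. Of 108 tested, 2 were called higher at 6 min and 4 at 90 min, while with library totals 20 were called higher at 6 min and none at 90 min. From 6 to 24 min, 31 fell and 3 rose, and from 24 to 90 min none fell and 21 rose.

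**Figure D2:**
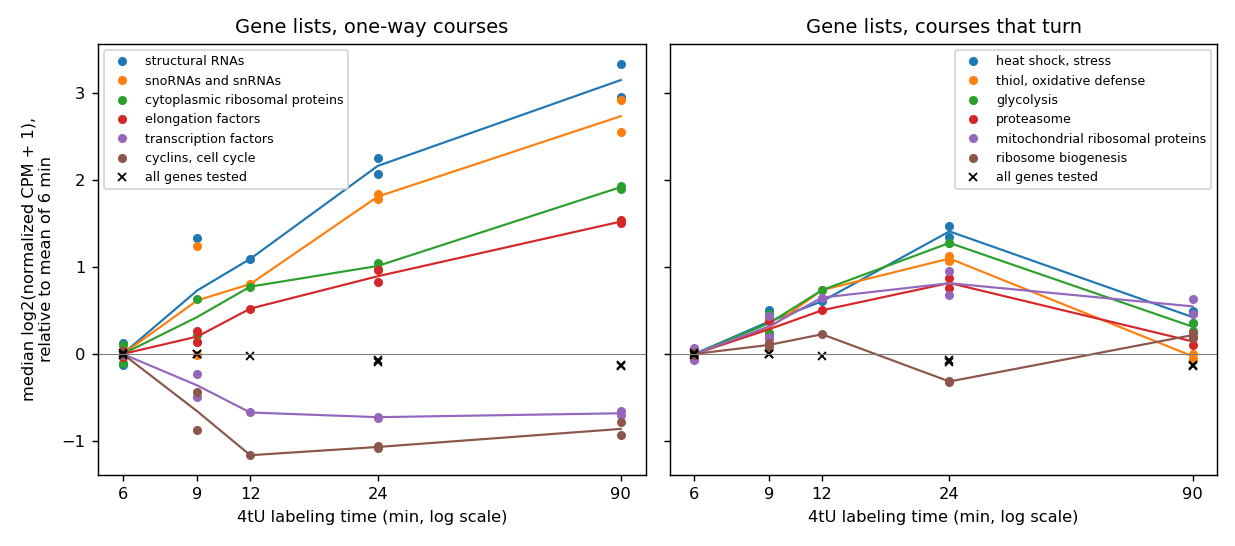
Median of log2(normalized CPM + 1) over the tested members of each gene list, relative to the mean of the 6 min libraries (y axis), against labeling time (x axis, log scale). Points are libraries and lines join the means. The left panel holds lists with mostly one-way courses and the right panel lists with courses that turn. On the left, the cyclin median was lowest at 12 min, at -1.165, and stood at -0.79 and -0.94 at 90 min. Black crosses are all genes tested, and library totals in place of TMM would shift every list down by 0.68 at 90 min.

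The 12 nuclear genes with the largest called rises were *YPR170W-B*, *NCE101*, *FPR1*, *RPS28A*, *TIR1*, *RPP1A*, *CCW12*, *RPS27B*, *YDR154C*, *RPS29B*, *NTF2* and *TRX1*. All 12 stayed called with library totals and with any library left out. *FPR1*, the proline isomerase that binds rapamycin, was at 24.1 and 21.6 at 6 min, 23.8 and 37.4 at 9 min, 37.9 at 12 min, 58.6 and 64.4 at 24 min and 190 and 192 at 90 min. Its log2 change was 3.06 ± 0.21 (edgeR adjusted p = 1.4e-06). *CCW12*, a cell wall mannoprotein, held 7302 and 8668 at 6 min, 10630 and 18096 at 9 min, 38242 and 42015 at 24 min and 51056 and 59286 at 90 min, so most of its rise was done by 24 min. *NTF2*, a nuclear transport factor, went from 89.4 and 106 to 625 and 679, and *TRX1*, a thioredoxin, from 44.3 and 50.5 to 305 and 327. *NCE101* rests on few counts, at 2.74 and 4.06 before and 31.1 and 34.6 after.

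Genes for the respiratory chain and ATP synthase encoded in the nucleus also rose: 25 of 36 were called higher at 90 min and 1, *NDI1*, at 6 min. Their median was 1.32 (0.64 with library totals, where 5 stayed called higher). The list had a median coding length of 454.5 bases. All nuclear protein-coding genes of 301 to 600 bases had a median log2 change of 0.77, with 36.3% called higher at 90 min. *QCR7*, a subunit of the cytochrome bc1 complex, was at 90.9 and 119 at 6 min, 364 and 422 at 24 min and 466 and 485 at 90 min. Of 24 mitochondrially encoded genes tested, 4 rose and 3 fell, where 11.3% of all genes rose and 10.3% fell. *COB*, the cytochrome b of the same complex, went from 54.9 and 65.8 through 236 and 282 to 474 and 502, a log2 change of 3.01 ± 0.19, and stood at 1123 CPM in total RNA. The others that rose were *COX1*, *COX2* and *BI2*, and the 3 that fell were *AI3*, *Q0182* and *SCEI*.

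mRNAs for mitochondrial ribosomal proteins are known targets of Puf3, which binds the letters TGTANATA after the stop codon and speeds decay on glucose. These letters were searched on the coding strand within 200 bases after the stop codon in RefSeq R64, where N is any base. They were found in 66 of 67 mitochondrial ribosomal protein genes (98.5%), against 833 of 5744 tested protein-coding genes (14.5%). On the opposite strand of the same windows, the shares were 17.9% and 13.5%. The first match lay 8 to 139 bases after the stop, with a median of 50.5, and *RSM22* had none. The 4 genes of this group with the smallest adjusted p are shown because they carry the match and rose in share. Letters in capitals mark the match, in 30 bases of the mRNA strand:
MRPL23: tcttcaatccaTGTATATAtttatctgtta
MRPL44: acaagcaagccTGTAAATAatatatatgca
MRP51: attcagagttcTGTAAATAaataaagaaaa
MRPL50: gcgtacaatctTGTATATAggcaacatcgc
They lie at chrXV:612535-612564 (plus strand), chrXIII:720854-720883 (minus), chrXVI:327697-327726 (plus) and chrXIV:669719-669748 (minus).

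*MRPL23*, with the first of these sites, was at 60.001 and 71.8 at 6 min, 95.4 and 113 at 9 min, 135 at 12 min, 159 and 190 at 24 min and 197 and 174 at 90 min (log2 change 1.49 ± 0.17, edgeR adjusted p = 3.8e-05). *MRPL44* rose from 15.4 and 15.3 to 43.0 and 48.6, *MRP51* from 37.4 and 40.2 to 84.2 and 89.0 and *MRPL50* from 16.7 and 21.8 to 53.6 and 63.9. For all 4 the 24 and 90 min values overlapped, so the gain was done by 24 min. Over the list, 15 of 67 were called higher at 90 min and none at 6 min. From 6 to 24 min, 28 were higher and none lower. The list median of 0.55 turned to -0.13 with library totals, under which 1 was called higher and 3 lower. The 4 genes shown above kept a positive change on that scale, at 0.81, 0.88, 0.47 and 0.92, but lost their calls. Apart from these genes, the 767 tested genes with the letters had a median log2 change of -0.12 and the 4910 without had -0.20.

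Of 27 cyclins and cell cycle regulators, 12 were called higher at 6 min and none at 90 min, with a median log2 change of -0.91, and with library totals 26 were called. Their median coding length was 1470 bases. All nuclear protein-coding genes of 1201 to 2400 bases had a median log2 change of -0.37, with 12.9% called higher at 6 min. *CLN2*, a G1 cyclin, was at 593 and 481 at 6 min, 393 and 220 at 9 min, 154 at 12 min, 116 and 98.4 at 24 min and 145 and 123 at 90 min. It fell by 2.00 on the log2 scale (SE 0.25, edgeR adjusted p = 7.3e-05), and the fall was over by 24 min. *ASH1*, a repressor of HO in daughter cells, went from 413 and 467 to 138 in both 24 min libraries and 142 and 139 at 90 min. *HCM1*, a forkhead factor of S phase, went from 388 and 413 to 95.6 and 70.6 and then 112 and 127. *SIC1*, an inhibitor of Cdc28, held 39.3 and 44.1 at 6 min and 33.7 and 30.8 at 24 min and fell to 17.96 and 17.98 only at 90 min.

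Of 82 transcription factors, 27 were called higher at 6 min and 1 at 90 min, with a median of -0.71. With library totals 63 were called higher at 6 min and none at 90 min, with a median of -1.40. *HAP4*, the activating subunit of the respiratory gene activator, went from 137 and 146 to 39.5 and 44.0. *TYE7*, an activator of glycolytic genes, went from 136 and 112 to 34.0 and 37.5. *MIG3*, a repressor, went from 28.6 and 29.5 to 6.90 and 8.21. *RPN4*, the activator of proteasome genes, did not fall steadily: it was at 197 and 186 at 6 min, 100 at 12 min, 198 and 216 at 24 min and 67.0 and 69.0 at 90 min. *GCN4*, the activator of amino acid synthesis, was at 969 and 1196 at 6 min and 1134 and 1191 at 90 min (log2 change 0.10 ± 0.15), and this small value turned to -0.58 with library totals and to -0.04 without replicate 1 at 6 min. Of 23 genes for mRNA decay and deadenylation, 4 were called higher at 6 min (*CAF130*, *MOT2*, *CDC39* and *PAN2*) and none at 90 min, with a median of -0.38. With library totals 15 were called higher at 6 min and the median was -1.07. On the TMM scale 10.3% of all genes tested were called higher at 6 min. The list had a median coding length of 1734 bases. All nuclear protein-coding genes of 1201 to 2400 bases had a median log2 change of -0.37, with 12.9% called higher at 6 min. Without replicate 1 at 90 min *PAN2* lost its call (-0.98), and without replicate 2 both *PAN2* (-1.05) and *CDC39* (-1.28) did. *CAF130*, a subunit of Ccr4-Not, went from 192 and 185 through 47.4 and 49.7 to 61.4 and 66.8.

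The 12 nuclear genes with the largest called falls were *YMR046C*, *YBL005W-A*, *AAD6*, *FLR1*, *OYE3*, *GTT2*, *YLR108C*, *OSI1*, *ATR1*, *YLR460C*, *AAD4* and *PHO5*. *YMR046C* and *YBL005W-A* overlap longer annotated genes and belong to the repeated Ty elements, so their values are uncertain: *YMR046C* went from 154 and 169 to 0.160 and 2.89, but its 24 min libraries held 63.7 and 0.136, and it lost its call without either 90 min library. The other 10 stayed called with library totals and with any library left out.

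These genes fell along 2 kinds of course. *ATR1*, a multidrug efflux pump, fell at each time: 1869 and 1913 at 6 min, 1438 and 870 at 9 min, 854 at 12 min, 502 and 462 at 24 min and 156 and 162 at 90 min (log2 change -3.57 ± 0.22, edgeR adjusted p = 1.4e-06). *YLR108C* had the same order, from 345 and 363 through 136 and 128 to 20.2 and 22.9. *HXT1*, the low-affinity glucose transporter, held 1930 and 2052 at 6 min, 375 and 283 at 24 min and 219 and 233 at 90 min.

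Others rose until 12 or 24 min and were then nearly gone at 90 min. *OYE3*, an NADPH oxidoreductase, was at 211 and 223 at 6 min, 261 and 336 at 9 min, 407 at 12 min, 448 and 471 at 24 min and 13.3 and 10.2 at 90 min (log2 change from 6 to 90 min -4.19 ± 0.20, edgeR adjusted p = 2.6e-07). *OSI1*, an oxidative stress gene, was at 128 and 131, then 261 and 265 at 24 min and 9.78 and 8.88 at 90 min. *GTT2*, a glutathione transferase, went from 347 and 351 to 533 and 588 at 24 min and 23.3 and 17.1 at 90 min. *FLR1*, a fluconazole efflux pump, peaked at 12 min with 3837, between 2426 and 2704 at 6 min and 1861 and 1733 at 24 min, and ended at 92.5 and 99.2. For all 4, every library up to 24 min lay above both 90 min libraries. In the unlabeled total RNA of untreated cells, *OYE3* stood at 12.8 CPM, *OSI1* at 15 and *YLR460C*, at 445 to 710 normalized CPM up to 24 min, at 6.24. Total and labeled RNA are scaled to different pools, so these levels are only set side by side.

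**Figure D3:**
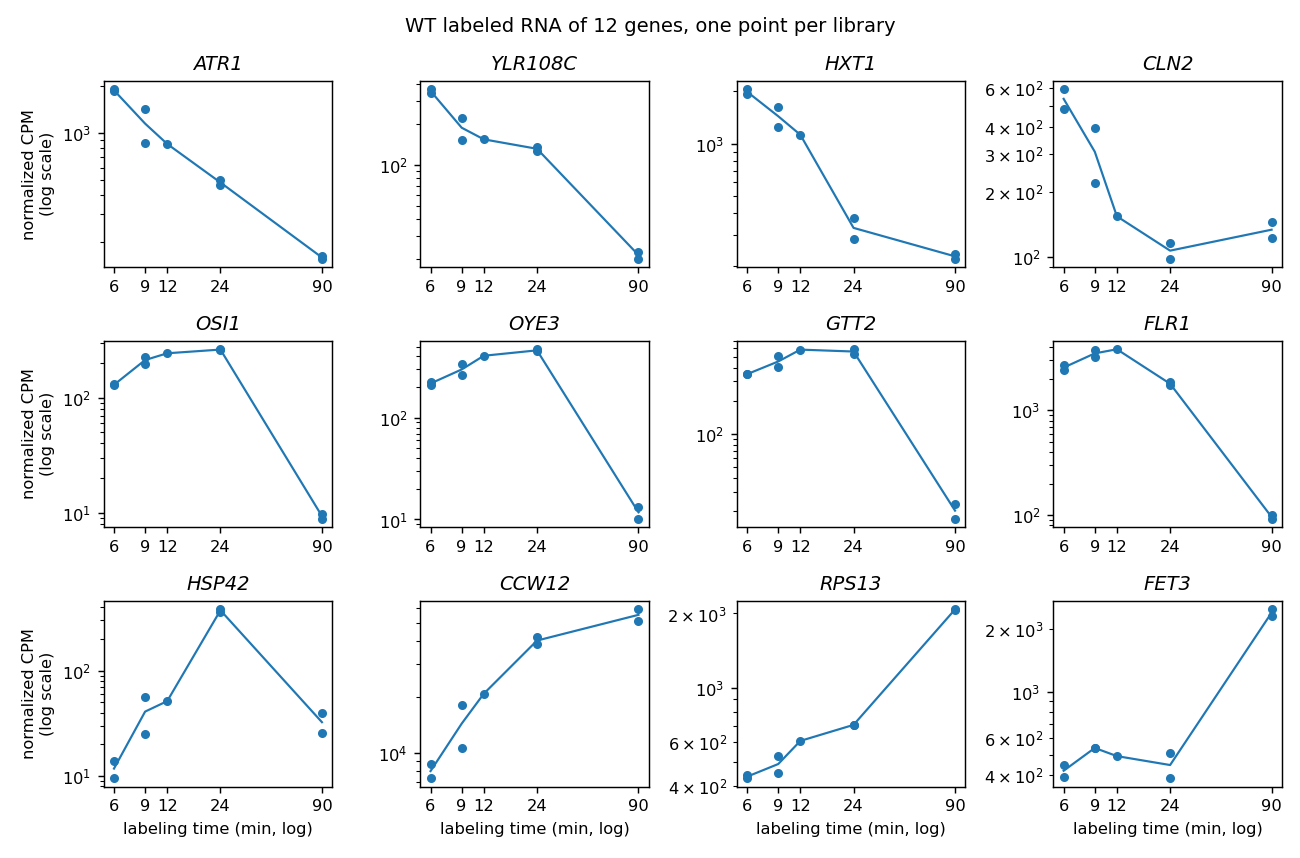
Normalized CPM (y axis, log scale, a range of its own in each panel) of 12 genes against labeling time (x axis, log scale), with a point for each WT library and a line through the means. *ATR1*, *YLR108C* and *HXT1* fell throughout, *OSI1*, *OYE3*, *GTT2* and *FLR1* fell after 24 or 12 min, *HSP42* was highest at 24 min, and *FET3* rose only at 90 min.

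Seen after the values were known, this maximum in mid course was compared directly, as 24 min against the mean of 6 and 90 min. Over all genes, 311 (4.94% of 6296) were higher at 24 min and 451 (7.16%) were lower. Without replicate 2 at 24 min the latter count was 156. Of 30 genes for thiol and oxidative defense, 17 were higher at 24 min and none lower. Among them *AHP1*, a peroxiredoxin, was at 279 and 267 at 6 min, 1023 and 1028 at 24 min and 452 and 425 at 90 min, and *SOD1*, the copper-zinc superoxide dismutase, at 145 and 169, 509 and 536, and 232 and 210. Of 34 heat shock and general stress genes, 24 were higher at 24 min and none lower. *HSP42*, a small heat shock protein, was at 14 and 10 at 6 min, 25 and 57 at 9 min, 51 at 12 min, 363 and 384 at 24 min and 39 and 26 at 90 min. *HSP104*, the disaggregase, was at 87 and 76, then 558 and 559 at 24 min and 154 and 138 at 90 min. *SSA1*, an Hsp70, went from 228 and 195 to 1282 and 1244 and back to 377 and 311. The 24 min values of these genes did not overlap with those of any other time. The genes were named with their values known, so this only describes them.

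Part of the glycolytic list did the same, with 7 of 19 genes higher at 24 min and none lower. *ENO1*, an enolase, rose from 1007 and 1291 to 3039 and 3125 at 24 min and fell to 452 and 382. *TDH1*, a glyceraldehyde-3-phosphate dehydrogenase, rose from 206 and 305 to 608 and 675 and fell to 66.4 and 66.8. *TDH3*, the main copy of that enzyme, kept rising on the TMM scale, from 9171 and 10396 through 28325 and 27688 to 34109 and 32081. Its log2 change from 24 to 90 min was 0.24, and library totals moved the median of all genes over this interval by -0.24. The late part of its rise thus depends on the scale. Among proteasome genes 4 of 32 were higher at 24 min, and none was called between 6 and 90 min in either direction. *PRE9*, a subunit of the core, was at 81.6 and 93.0, 231 and 245 at 24 min, and 175 and 159. Its log2 change from 6 to 90 min was not called by edgeR, while DESeq2 gave 1.03 and called it.

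Of 15 benchmarks of decay studies, 4 were called higher at 90 min and none at 6 min. *ACT1*, actin, was at 1205 and 1394 at 6 min, 3828 and 4154 at 24 min and 4018 and 4373 at 90 min. *CYC1*, cytochrome c, went from 60.3 and 63.7 to 154 and 165. *RPL28* stayed between 345 and 411 up to 24 min and reached 1017 and 892 at 90 min. With library totals *CYC1* and *RPL28* each changed by 0.68 and were not called. *PGK1*, phosphoglycerate kinase, was highest at 24 min, at 11016 and 9318, against 3524 and 3761 before and 6742 and 5718 after. *ADH1*, alcohol dehydrogenase, went from 2815 and 2839 through 9298 and 8212 to 3628 and 3075, so its log2 change from 6 to 90 min, 0.25 ± 0.17, does not show the course. Of the genes named for their strain difference, *FET3*, the multicopper oxidase of iron uptake, stayed between 385 and 539 from 6 to 24 min and reached 2494 and 2297 at 90 min. *FTR1*, its permease partner, stayed between 109 and 194 and reached 495 and 530.

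The change from 6 to 90 min was ordered by coding length more than by any other feature examined. Across 5744 nuclear protein-coding genes, Spearman's rho of the log2 change with coding length was -0.543 (Pearson's r with log2 length -0.474), which is a description over genes that share libraries. With codon adaptation to ribosomal protein genes it was 0.280, with GC content 0.160 and with the share of T in the coding sequence -0.106. In the number of T, the letter that carries the label, rho was -0.537, close to that of length itself. In 215 genes of up to 300 bases the median log2 change was 1.12, and 85 were called higher at 90 min and 2 at 6 min. In 1750 genes of 601 to 1200 bases it was 0.11. In 899 genes longer than 2400 bases it was -0.74, with 1 called higher at 90 min and 260 (28.9%) at 6 min.

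The order held among other genes. Without the ribosomal protein genes, genes of up to 300 bases still had a median of 1.00, and those of 301 to 600 bases 0.66. Within each length range the ribosomal protein genes lay higher, at 2.13 up to 300 bases, 1.97 from 301 to 600 bases and 1.66 from 601 to 1200 bases. The length relation lay in the early interval, with rho of -0.569 from 6 to 24 min and 0.119 from 24 to 90 min. For the number of T these were -0.586 and 0.160. GC content and the share of T changed sign between the intervals, with rho of 0.361 and -0.338 for GC content and -0.246 and 0.284 for T. Their small values from 6 to 90 min do not show this, and in the late interval both were larger in size than that of length. In *def1Δ* libraries, which share no sample with WT, rho of coding length from 6 to 90 min was -0.558. Length and the number of T move together here, and their parts in the result cannot be told apart.

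**Figure D4:**
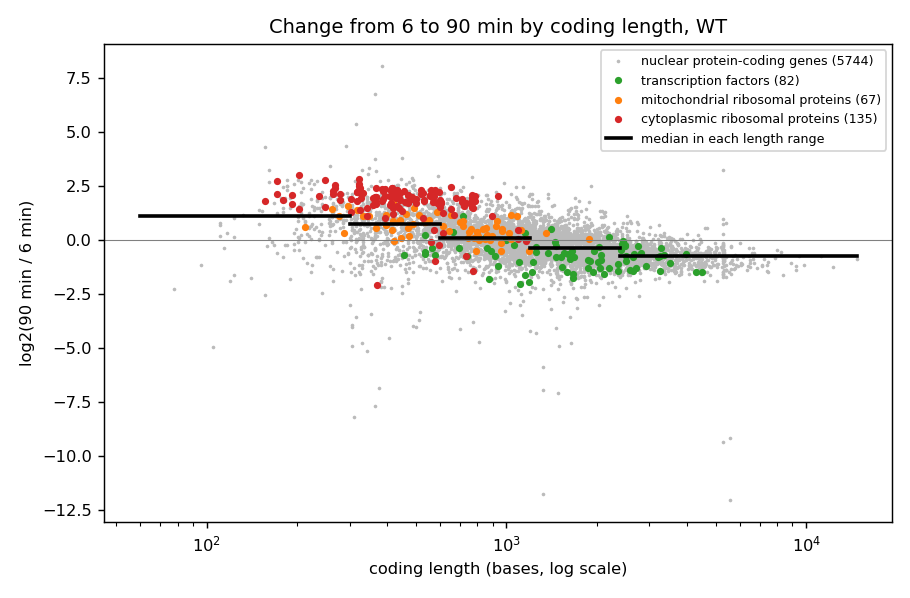
Log2 change from 6 to 90 min (y axis, TMM scale) against coding length (x axis, bases, log scale) for 5744 nuclear protein-coding genes. Black bars are medians within length ranges and step down from 1.12 to -0.74. Cytoplasmic ribosomal proteins mostly lie above the bars. Transcription factors had a median of -0.71 at a median coding length of 1665 bases, where the bar is at -0.37. Library totals in place of TMM would lower every point by about 0.68. This turns the sign of the bar at 601 to 1200 bases and of the mitochondrial ribosomal protein median.

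The same contrast in *def1Δ* cells gave mostly the same direction. Of the 647 genes higher at 6 min in WT, 624 had the same sign in *def1Δ* and 493 (76.2%) were called there, against 19.9% of all 6499 genes tested. Of the 711 higher at 90 min, 701 had the same sign and 605 (85.1%) were called, against 18.9% of all. The strains differed in 593 genes by the interaction of strain and time: in 379 (5.83%) the log2 change was lower in WT and in 214 (3.29%) it was higher. With library totals 1294 genes were called, and the median of all genes in this difference moved from 0.00 to -0.49.

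The labeled RNA of the strains also differed in make-up: snoRNAs and snRNAs took 1.30% and 1.18% at 6 min and 7.0% and 7.43% at 90 min in *def1Δ*, below the WT values at both times, and the part of this in the result was not tested. Proteasome genes differed most often among the larger lists. The change was lower in WT for 25 of 32 proteasome genes, and for none higher, with a median difference of -1.15. In *def1Δ*, 25 of the 32 were called higher at 90 min, while in WT none was. *PRE9* was at 78.2 and 75.4 at 6 min and 301 and 330 at 90 min in *def1Δ*. The change was also lower in WT for 25 of 67 mitochondrial ribosomal protein genes (median difference -0.97), 15 of 34 heat shock and stress genes (-0.82, with 1 higher) and 13 of 30 thiol and oxidative defense genes (-0.93, none higher). Cytoplasmic ribosomal proteins had a median difference of 0.02, with 2 genes called each way.

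Single genes showed the difference at its widest. *OSI1* fell to 9.78 and 8.88 at 90 min in WT but was at 96.7 and 76.4 at 6 min and 59.5 and 80.9 at 90 min in *def1Δ* (difference -3.50 ± 0.25, edgeR adjusted p = 3.0e-07). *HXT6*, a high-affinity glucose transporter, went from 43.5 and 49.2 to 6.74 and 7.33 in WT and from 5.98 and 14.8 to 44.8 and 47.2 in *def1Δ* (-4.84 ± 0.45, edgeR adjusted p = 5.9e-06), with reads that its near-identical neighbour *HXT7* may share. *YHR054C* had the next largest difference, -4.28, but in *def1Δ* it rests on 0 and 0.473 normalized CPM at 6 min. In the other direction were *DUR3*, a urea transporter (2.17 ± 0.28), *FTR1* (2.04 ± 0.23) and *FET3* (1.91 ± 0.19). *FET3* was at 1355 and 1309 at 6 min and 1912 and 2087 at 90 min in *def1Δ*, so it started higher there and rose less. *ATR1* and *HXT1* fell in both strains, with log2 changes of -3.57 and -3.14 in WT and -3.49 and -3.11 in *def1Δ*, and the differences were -0.10 ± 0.26 and -0.05 ± 0.23 (SE).

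**Figure D5:**
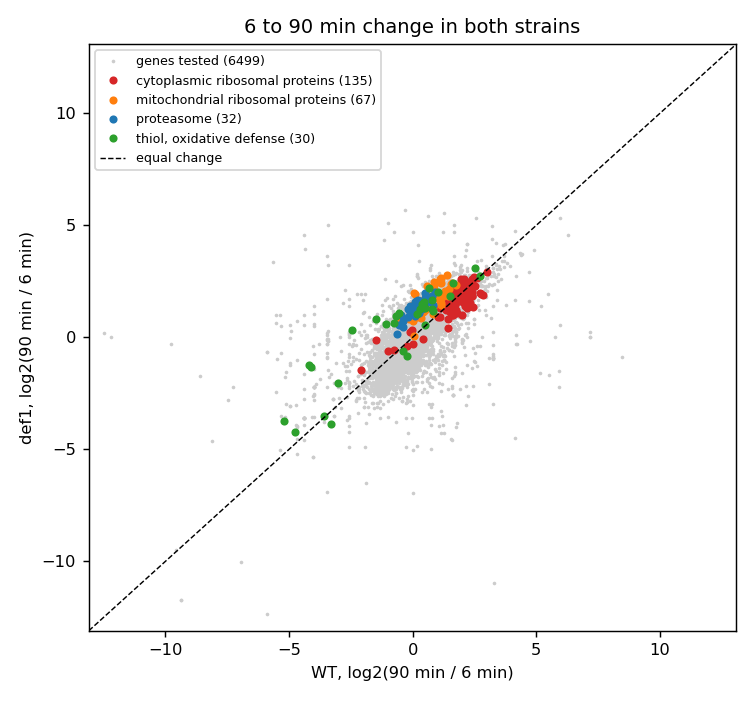
Log2 change from 6 to 90 min in WT (x axis) and in *def1Δ* (y axis) for 6499 genes, with 4 gene lists marked and a dashed line at equal change. Proteasome and mitochondrial ribosomal protein genes lie above the line, and cytoplasmic ribosomal proteins lie around it, with library totals moving all points to the left relative to the line by about 0.49.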

How the data were processed

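The study labeled WT and *def1Δ* yeast with 4tU, captured labeled RNA with streptavidin, depleted rRNA and sequenced stranded libraries. Per the submitters' processing notes, STAR and RSEM 1.2.28 were used with build R64. The deposited values are RSEM's estimated counts per gene, which the authors did not normalize. FastQC, HISAT2, featureCounts and DESeq2 are also listed there. The labels' *S. pombe* spike-in was not used here, so no absolute amount is given.

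Estimated counts were rounded, and a gene was tested if its counts summed to 15 or more in the libraries fitted, with edgeR 4.0.16 in R 4.3.3 (quasi-likelihood, TMM, time as a factor, all 9 WT libraries, 4 residual degrees of freedom). Calls needed a Benjamini-Hochberg adjusted p under 0.01 and a log2 change over 1. Strains were compared in a fit of all 18 labeling libraries by the interaction term. Of 7127 genes listed, 6169 matched RefSeq by locus tag or symbol, and 370 had counts identical to another gene. On data simulated for 6 against 90 min (6296 genes, 200 with a log2 change of 2), 189 were recovered with 1 false call. The time trend recovered 194 with 3. In the WT libraries 21.6% of genes were called between 6 and 90 min, and recovery with that many genes changed was not tested.

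The members and gene lists were chosen with earlier results of these data known. The text names the 12 nuclear protein-coding genes with the largest called change in each direction (mean of at least 100 counts, times not overlapping), up to 4 members of each list by adjusted p, all decay benchmarks, *DEF1*, and the 3 largest strain differences in each direction. *NDI1*, *RSM22*, *RPL22B*, *RPL8A*, *RPS9A*, *HSP42*, *HSP104*, *SSA1*, *AHP1* and *SOD1* fall outside that rule or were singled out after their values were seen. Alternatives were the scaling (library totals, DESeq2 size factors, TMM on protein-coding genes), DESeq2 1.42.0, the count filter, the cutoffs, the libraries fitted, genes of identical counts, a replicate block and leaving out each library. The 24 min contrast, the 9 to 24 min check and T content were added after seeing the data.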

Additional observations from a re-analysis of the deposited data

Results flagged for a closer look

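For the genes below the change from 6 to 90 min differed between WT and *def1Δ* by the interaction term (edgeR, adjusted p under 0.01 and a log2 difference over 1, among 6499 genes tested). Values are the WT change minus the *def1Δ* change on the log2 scale. All come from 2 libraries per strain and time, and library totals would move each by about -0.49.

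The change was lower in WT for *HXT6* (-4.84) and *YHR054C* (-4.28), whose reads may be shared with near-identical copies. It was lower for *OSI1* (-3.50), *YLR460C* (-3.34), *OYE3* (-2.95), *GTT2* (-2.79), *AHP1* (-1.52), *AAD6* (-1.47) and *SOD1* (-1.08). The glycolytic genes *TDH1* (-2.24) and *ENO1* (-2.11) and the stress genes *HSP12* (-1.76) and *SSA1* (-1.20) were also lower. So were *Q0182* of the mitochondrial genome (-1.74), *RPL8A* (-1.36), *MET2*, an enzyme of methionine synthesis (-1.26), *PHO5*, an acid phosphatase (-1.15), the proteasome subunits *PRE9* (-1.12) and *PRE5* (-1.08), and *SIC1* (-1.003).

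The change was higher in WT for *DUR3* (2.17), *FTR1* (2.04) and *FET3* (1.91), which carry urea and iron into the cell. It was also higher for *HXT2*, a glucose transporter (1.68), *SAG1*, the alpha-agglutinin (1.54), the noncoding RNAs *RME2* (1.38) and *ICR1* (1.31), and *YPR170W-B* (1.29). *MMP1*, the S-methylmethionine permease, differed by 1.15, *RPL1A* by 1.12 and *SSB2*, a ribosome-associated Hsp70, by 1.08.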

How the results depend on the processing

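With library totals, 2373 genes were higher at 6 than at 90 min and 307 the reverse, 1742 fell and 256 rose with time, 1904 were higher at 6 than at 24 min and 369 the reverse, 401 were higher at 24 than at 90 min and 79 the reverse, 1294 differed between strains, and 8 gene lists in place of 5 had most tested members called one way. With an adjusted p under 0.05 and no fold cutoff these counts were 1908, 1406, 826, 852, 2143, 1739, 771, 1025 and 1944, with 1663 genes lower and 1398 higher at 24 min than the mean of 6 and 90 min. With a 4-fold cutoff they were 51, 201, 28, 168, 80, 122, 56, 7 and 44, with 12 lower and 47 higher at 24 min. DESeq2 and its size factors, TMM on protein-coding genes and the count filters kept these counts within 1.5 times. The Spearman correlation of the log2 change with coding length was -0.63 for genes with a mean of at least 100 counts.

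With library totals the list medians turned to -0.43 (a-specific genes), -0.37 (aminoacyl-tRNA synthetases), -0.48 (cell wall), -0.42 (glycolysis), -0.27 (heat shock), -0.012 (histones), -0.25 (mitochondrial genome), -0.13 (mitochondrial ribosomal proteins), -0.54 (proteasome), -0.47 (ribosome biogenesis), -0.38 (benchmarks), -0.31 (tRNAs) and -0.59 (uracil and pyrimidine genes). At a mean of at least 100 counts the a-specific median was -0.15 and that of tRNAs -0.52, and tRNAs were at -0.21 without genes of identical counts.

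Leaving out each library in turn gave 395 to 674 genes higher at 6 than at 90 min and 564 to 744 the reverse, with 395 without replicate 2 at 90 min. Genes falling with time numbered 75 to 224 and rising 339 to 486. Genes higher at 6 than at 24 min numbered 843 to 1039 and the reverse 711 to 949. Genes higher at 24 than at 90 min numbered 122 to 274. The reverse numbered 60 to 242. Genes higher at 24 min than the mean of 6 and 90 min numbered 211 to 344, and lower 156 to 471. Strain differences numbered 403 to 606, lists 5 to 6 and the correlation with coding length -0.572 to -0.513. The list median of a-specific genes ran from -0.087 (without replicate 2 at 90 min) to 0.51, and that of tRNAs from -0.28 (without replicate 2 at 6 min) to 1.33.

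Small changes turned sign as well. With library totals *MF(ALPHA)2* was at -0.33, *RUF5-1* at -0.044, *PAB1* at -0.16, *GCN4* at -0.58, *HTB1* at -0.38, *ADH1* at -0.44 and *DEF1* at -0.48. *RPL3* was at 0.072 with DESeq2 or its size factors, at 0.10 with the 6 and 90 min libraries alone, and ran from -0.12 to 0.10 with a library left out, turning without replicate 2 at 12, 6 or 90 min. With a library left out, *GCN4* ran from -0.041 (without replicate 1 at 6 min) to 0.26, *MF(ALPHA)2* from -1.13 (without replicate 2 at 90 min) to 1.21, and *SPO13* from -0.78 to 0.38 (without replicate 1 at 90 min). The causes were not tested.

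Replicates share numbers between times, but the labels name no shared batch, and deviations of same-numbered libraries correlated at -0.007 to 0.197. A fit with the replicate number as a block called 670 genes higher at 6 min and 725 higher at 90 min.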

Other observations

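Some lists had no place above. Of 59 tRNA genes tested, 3 with identical counts, which are a single measurement, were higher at 90 min and none at 6 min, and of 15 rRNA genes none was called. tRNAs took under 0.02% of counts, and rRNA was depleted. Of 15 hexose transporters, 4 were higher at 6 min and 1 at 90 min, and of 21 genes for methionine and sulfate assimilation, 4 and 1. Of 18 genes for uracil uptake and pyrimidine synthesis, 3 were higher at 6 min and 2 at 90 min, and 5 were lower at 24 min than the mean of 6 and 90 min, where none was higher. Of 30 cell wall and secreted protein genes, 6 were higher at 6 min and 5 at 90 min, and of 10 histone genes none and 2. Over all 6296 genes, 10.3% were called higher at 6 min and 11.3% at 90 min, and 7.16% were lower at 24 min. The counts of these short lists are given beside those shares and are not read as traits of the lists.

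Introns were annotated in 134 of 640 protein-coding genes higher at 90 min, in 16 of 636 higher at 6 min and in 310 of 5744 tested. Of the 135 cytoplasmic ribosomal protein genes, 124 of them called higher at 90 min, 89 have an annotated intron, and the intron counts were not separated from that list.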
